A study of Homo sapiens and Mus musculus with 47 samples.

Results

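This report follows 10 imprinted genes, H19, IGF2, MEG3, DLK1, KCNQ1OT1, CDKN1C, PEG3, PEG10, GRB10 and SNRPN, taken by their gene names from every count table used. They are 10 of the 57820 genes in the human tables and 10 of the 55401 genes in the mouse tables, where the same names are written H19, Igf2, Meg3 and so on. Chrom-seq labels RNA close to a chromatin mark in living cells. A reader domain that binds the mark carries 10 copies of the SunTag peptide, antibody fragments fused to the peroxidase APEX2 bind these copies, and APEX2 attaches biotin to nearby RNA, which is then captured and sequenced. The TAF3 reader, which recognises H3K4me3, a mark of active promoters, was expressed for 48 h in HCT116 (human colorectal cancer), NIH3T3 (mouse embryonic fibroblast) and Neuro-2a (mouse neuroblastoma) cells. It was compared in each line with control cells that carried the peptide array and APEX2 without a reader, so control and TAF3 cells shared the APEX2 construct and the labelling (500 µM biotin-aniline for 30 min, then 1 mM H2O2 for 1 min). RNA-seq of HEK293T cells, a human embryonic kidney line, compared cells expressing the CBX7 reader, which binds the repressive mark H3K27me3, with control cells. The study's methods call these untreated, whereas the labels give the construct expression and the biotin labelling for every RNA-seq sample as well. Whether the control cells were transfected, and whether the RNA-seq cells were labelled, is therefore not settled here. A second set of HEK293T RNA-seq compared antisense oligonucleotides (ASOs) against the long noncoding RNAs SETD5-AS1, LINC00641 and LINC00662 with a negative control oligonucleotide, NC ASO. Every group had 3 libraries except the LINC00641 ASO, which had 2 (replicates 2 and 3). The readers are mouse sequences. The labels number the replicates without saying whether they were separate cultures, so p-values measure the spread between these libraries. Chrom-seq libraries of HEK293T were not analysed here.

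An imprinted gene is expressed mainly from the allele inherited from one parent, set by DNA methylation laid down in the germ line. Imprinted genes lie in clusters, in which a noncoding RNA is often expressed from the parental allele on which neighbouring protein genes are silent: H19 stands beside IGF2, KCNQ1OT1 lies inside KCNQ1 near CDKN1C, and MEG3 stands beside DLK1. Many of them set fetal growth, IGF2 as a growth factor and GRB10 and CDKN1C as brakes. The counts do not separate the parental alleles, so each value below sums both.

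RefSeq promoter windows, 250 bases before to 50 after an annotated start on GRCh38.p14, were matched by symbol for 4 of the 10 members, in 13 windows: 1 for H19, 5 for GRB10, 3 for MEG3 and 4 for SNRPN. No entry was used for IGF2, DLK1, KCNQ1OT1, CDKN1C, PEG3 or PEG10. The windows of H19 and the first listed of GRB10 are shown because these genes gave human differences in RNA-seq, with each CpG, the dinucleotide that carries DNA methylation, in capitals. H19 (chr11:2001217-2001516, minus strand) and GRB10 (chr7:50793404-50793703, minus strand) are written 5′ to 3′.

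H19: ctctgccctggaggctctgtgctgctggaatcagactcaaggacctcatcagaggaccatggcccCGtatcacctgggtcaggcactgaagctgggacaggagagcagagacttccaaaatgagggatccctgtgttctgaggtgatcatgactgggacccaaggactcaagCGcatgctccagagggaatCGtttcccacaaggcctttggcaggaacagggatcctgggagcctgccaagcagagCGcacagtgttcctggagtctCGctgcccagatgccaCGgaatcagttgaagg
GRB10: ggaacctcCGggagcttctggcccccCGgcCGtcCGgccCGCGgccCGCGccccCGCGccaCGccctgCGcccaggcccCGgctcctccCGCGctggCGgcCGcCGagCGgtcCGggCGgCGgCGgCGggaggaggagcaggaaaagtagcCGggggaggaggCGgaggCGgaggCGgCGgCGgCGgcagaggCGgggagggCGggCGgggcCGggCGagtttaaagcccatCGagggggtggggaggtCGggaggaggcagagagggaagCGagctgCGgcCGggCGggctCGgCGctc

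The H19 window held 6 CpGs and the GRB10 window 44, against a median of 14 over all 35116 windows. At least as many CpGs as in the H19 window were found in 66.3% of all windows, and at least as many as in the GRB10 window in 4.19%. The letters TGCCGC, the core bound by the imprint-protecting zinc finger protein ZFP57, were searched on both strands. They occurred 1 time in this GRB10 window and in none of the other 4, 1 time in each of the 3 MEG3 windows (which overlap one another) and not in the H19 window. Of the 4 SNRPN windows 1 held them 2 times and 1 held them 1 time. Of all windows 16.7% held them. H19 is also the precursor of the microRNA miR-675, whose mature strands, miR-675-5p (chr11:1996800-1996822) and miR-675-3p (chr11:1996768-1996787) on the minus strand of GRCh38.p14, are given with the seed, bases 2 to 8, in capitals.

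hsa-miR-675-5p: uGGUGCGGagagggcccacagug
hsa-miR-675-3p: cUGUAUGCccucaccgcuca

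How much of each member could receive counts of its own differed between genes. The files give each gene's whole span as its length, on hg19 for human and mm10 for mouse, and a read in a part shared by genes on the same strand belongs to no single one of them. Of the IGF2 span (chr11:2150342-2170833, minus strand) only 12.6%, or 2582 of 20492 bases, was free of another gene on that strand. All human IGF2 values below are limited by this. Mouse Igf2 (chr7:142650766-142666816) had 3 free bases of 16051 and was listed at 0 in all 12 mouse libraries. Human PEG3 (chr19:57321445-57352096, minus strand) had 0 free bases, since ZIM2 spans it, and was listed at 0 in every human library. Mouse Peg3 had no overlapping gene and had 1844 to 9144 counts per library. SNRPN was free over 84.6% of its span in human and 85.7% in mouse, the remainder being shared with other same-strand genes. Human SNRPN had at most 2 counts in any library. The levels of human PEG3, mouse Igf2 and SNRPN in both species were therefore not read as expression. H19, DLK1, CDKN1C, PEG10 and GRB10 had no overlapping gene in human. KCNQ1OT1 (chr11:2629558-2721224) lies wholly opposite KCNQ1, and both genes had counts in every library. The strand setting of the counting is not given in the sources used here, so the values of this pair are uncertain.

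**Figure D1:**
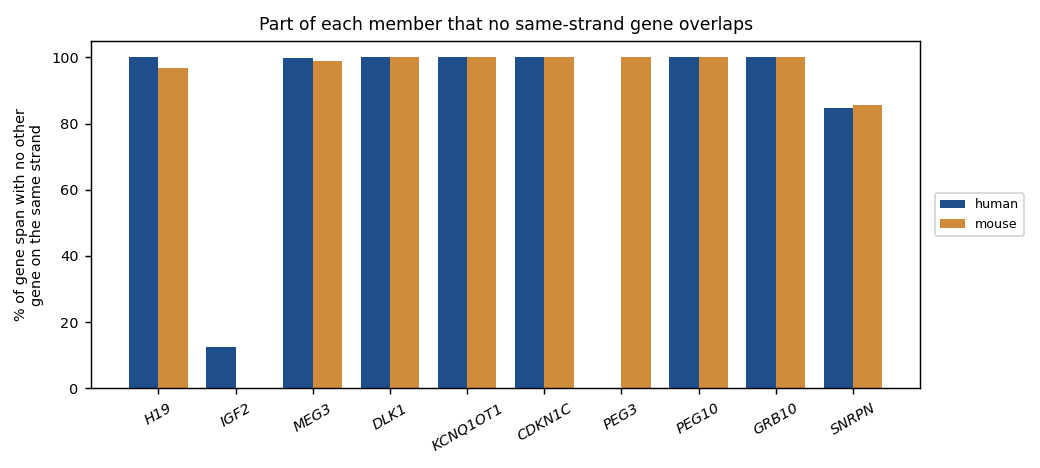
Bars give the percentage of each gene's span, from the tables' coordinates, that no other gene on the same strand overlaps, for human (blue) and mouse (orange). Human IGF2 stands at 12.6%, and human PEG3 and mouse Igf2 have no visible bar (0% and 0.0187%).

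Total counts ran from 10012172 to 17558305 per library in Chrom-seq and from 8258859 to 15330874 in RNA-seq, so 3 counts were worth 0.356 CPM (counts scaled to a common library size) at most. The CPM values use TMM-scaled library sizes within each table. One library stood apart. Neuro-2a TAF3 replicate 1 was set against each remaining library of its group, and the chi-square statistic averaged 32.8 and 37.4 per gene, where replicates 2 and 3 gave 3.24, and the Neuro-2a values below are given with and without it. Some line markers followed the labels and others did not. EPCAM stood at 349 CPM in HCT116 controls, and NEFM at 369 CPM in HEK293T controls. Col1a2 stood at 920 CPM in NIH3T3 and 0 in Neuro-2a controls, and Hand2 at 304 CPM in Neuro-2a and 0 in NIH3T3 controls. VIL1 was near 0 in HCT116 (0.374 CPM). PAX2, listed for HEK293T, was at 11.6 CPM in HCT116 controls and 9.98 CPM in HEK293T controls. The fibroblast markers Vim and Fn1 were at 709 and 360 CPM in Neuro-2a controls, below NIH3T3 controls (1854 and 5383 CPM). Taf3 rose by 6.04 in NIH3T3 and 3.25 in Neuro-2a on the log2 scale, and CBX7 by 1.34 in HEK293T. In HCT116 the human TAF3 gene differed by 0.43 and was not called. Both readers are mouse sequences, so the values of human TAF3 and human CBX7 are no direct check of reader expression. SETD5-AS1, LINC00641 and LINC00662 fell by 3.62, 4.81 and 3.002 with their own ASO.

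The largest differences among these genes lay between the mouse lines. In the reader-free control Chrom-seq libraries, which sample biotin-labelled RNA and not total RNA, Neuro-2a cells held the paternally expressed genes Peg10 and Peg3, and NIH3T3 cells held Grb10, Dlk1 and Meg3 at levels where Neuro-2a was near 0. In bulk libraries fewer expressing cells and less RNA per cell cannot be told apart. Each line has its own set of libraries, so line and library batch cannot be told apart either. Of the 10 members 8 had enough counts to be tested, several only through the line where they were high, and all 8 were called (past both thresholds: adjusted p below 0.05, and log2 fold change 0.75 or more either way), 3 higher and 5 lower in Neuro-2a. Of all 18433 genes tested 51.7% were called in this comparison, so a call here separates a gene little from others.

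Peg10, a retrotransposon-derived gene that carries a gag-like reading frame, stood at 287, 291 and 301 CPM in the Neuro-2a controls and at 0, 0.0636 and 0 CPM in the NIH3T3 controls. That is 10208 counts against 1, a ratio of 14420 with an exact 95% interval of 2588 to 569600 that covers counting error only. Peg3, which encodes a zinc finger protein, stood at 706, 714 and 668 CPM in Neuro-2a and at 132, 117 and 118 CPM in NIH3T3. Both lines therefore had Peg3 RNA, with no overlap between them, and the log2 difference was 2.40 ± 0.06 (SE, n = 3 per line, edgeR adjusted p = 1.025e-21).

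Grb10, an adaptor that binds and restrains insulin and IGF receptors, was at 736, 746 and 749 CPM in the NIH3T3 controls and at 0.618, 0.997 and 0 CPM in the Neuro-2a controls. The log2 difference, Neuro-2a minus NIH3T3, was -10.50 ± 0.14 (SE, edgeR adjusted p = 3.446e-26). The neighbours Dlk1 and Meg3 went the same way. Dlk1, a Notch-like transmembrane protein of precursor cells, was at 83.1, 86.5 and 92.2 CPM in NIH3T3 against 0.309, 0.635 and 0.183 CPM in Neuro-2a, a log2 difference of -7.94 ± 0.18. Meg3, a maternally expressed long noncoding RNA, was at 53.3, 54.3 and 58.2 CPM against 0.154, 0.181 and 0 CPM, a log2 difference of -8.91 ± 0.25. The libraries of each line lay close together, far from those of the other line, for all 3 genes. Fitted differences of this size rest on a few counts in Neuro-2a (0 to 11 per library) and on the prior count of the fit. Their SE is derived from the F statistic of the test and does not cover the counting error of so few counts.

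Kcnq1ot1, the long antisense RNA of its cluster, was present in both lines, at 700, 723 and 682 CPM in the NIH3T3 controls and 289, 321 and 297 CPM in the Neuro-2a controls. The log2 difference was -1.32 ± 0.05 (SE, edgeR adjusted p = 3.97e-17). H19 was low in both lines, at 1.91, 0.827 and 1.94 CPM in NIH3T3 and 0.386, 0.181 and 0.275 CPM in Neuro-2a (log2 difference -2.52 ± 0.63, edgeR adjusted p = 0.00101). In Neuro-2a H19 rested on 2 to 5 counts per library. Cdkn1c, a cyclin-dependent kinase inhibitor, had no counts in the 6 control libraries. Snrpn is among the members called between the lines, but its counts are not read as expression, as said above. It had 37 counts in Neuro-2a and 3 in NIH3T3 (ratio 17.4, exact 95% interval 5.52 to 88.3). The same-strand gene Gm38393, which spans part of Snrpn, had 259 to 373 counts per library in Neuro-2a and 93 to 106 in NIH3T3.

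**Figure D2:**
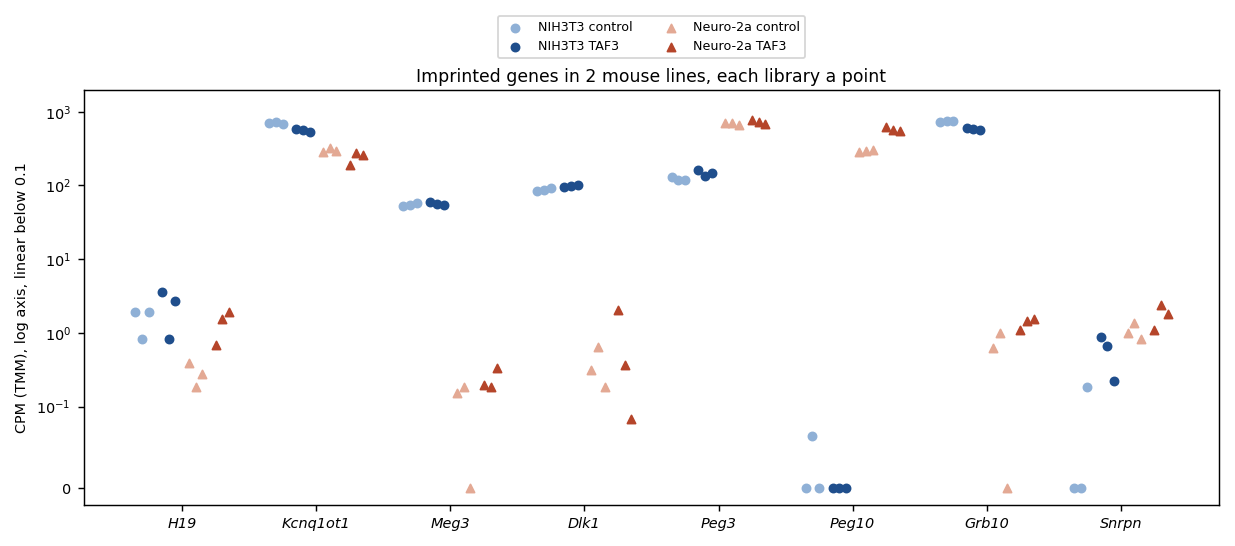
Each point is one Chrom-seq library; the vertical axis is CPM on a log axis that is linear below 0.1, with NIH3T3 libraries as circles and Neuro-2a libraries as triangles, pale for control and dark for TAF3. Grb10, Dlk1 and Meg3 are high in NIH3T3 only, Peg10 in Neuro-2a only, and Kcnq1ot1 and Peg3 are above 100 CPM in both lines.

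Among 23 other imprinted genes tested between the lines, 10 were higher and 8 lower in Neuro-2a. Sgce, which neighbours Peg10, had 3052 counts in the Neuro-2a controls and none in the NIH3T3 controls, at least 1437-fold higher with 3 counts over the group as the floor. Mest, a paternally expressed hydrolase gene, stood at 314 CPM ± 20.9 (SD, n = 3) in Neuro-2a and 0.136 CPM ± 0.186 in NIH3T3. Plagl1, a zinc finger gene, stood at 54.5 CPM ± 1.60 in NIH3T3 and 0.181 CPM ± 0.314 in Neuro-2a. Igf2os, opposite Igf2, had 1937 counts in the NIH3T3 controls and none in Neuro-2a, at least 457-fold higher in NIH3T3. The gene Gm49394, which spans Igf2 on its own strand, had 86 to 199 counts per library in the NIH3T3 controls. Of 11 genes of the IGF axis (receptors, their substrates, IGF2 mRNA-binding proteins and IGF-binding proteins) 4 were higher and 5 lower, with Igf2bp1, an IGF2 mRNA-binding protein gene, at 7359 counts in NIH3T3 and 1 in Neuro-2a. Of 12 imprint regulators (DNA methyltransferases, ZFP57 and its partners, CTCF and the Polycomb core) 2 were called, and the larger difference was that of Dnmt3a, a de novo DNA methyltransferase, at 263 CPM ± 2.01 in Neuro-2a and 96.5 CPM ± 3.06 in NIH3T3.

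With the TAF3 reader, Peg10 was the member that rose, in Neuro-2a cells. It stood at 287, 291 and 301 CPM in the controls and at 628, 567 and 540 CPM with TAF3, with no overlap. The log2 fold change was 0.99 ± 0.09 (SE, n = 3 per group, edgeR adjusted p = 0.00127), or 1.99-fold. Without TAF3 replicate 1 it was 0.93 (edgeR adjusted p = 4.127e-15). It was 1 of the 7 members tested, where 1.03% of all 17006 genes were called. Without that replicate 2 of 7 members and 3.66% of 16940 genes were called, and leaving out any one control library brought the calls over all genes from 176 to between 41 and 45. H19 went from 0.386, 0.181 and 0.275 CPM to 0.688, 1.55 and 1.94 CPM, again without overlap. It was not called (log2 fold change 2.27 ± 0.66, edgeR adjusted p = 0.135), but it was called without replicate 1 (2.58, edgeR adjusted p = 0.00847), on 2 to 5 counts per control library and 17 and 23 counts in the other TAF3 libraries.

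The library that stood apart showed in other members as well. Kcnq1ot1 was at 187 CPM in TAF3 replicate 1 and at 279 and 257 CPM in its other libraries, against 289, 321 and 297 CPM in the controls (log2 fold change -0.32 ± 0.14, edgeR adjusted p = 0.295; -0.16 without that replicate). Dlk1 had 21 counts there and 4 and 1 in the other TAF3 libraries, and its log2 fold change of 1.13 ± 1.03 became -0.72 without it. Cdkn1c had 13 counts there and 1 and 4 in the others; with a sum of 18 over the 6 libraries it was not tested. Peg3 (0.06 ± 0.09), Snrpn (0.72 ± 0.47) and Grb10 (1.32 ± 0.81) were not called, nor were they without replicate 1 (0.02, 0.97 and 1.45), and Meg3 had 0 to 4 counts per library.

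In NIH3T3 cells no member passed both thresholds with the TAF3 reader. Of the 7 members tested edgeR called 0, DESeq2 called 0, 5 had an unadjusted p under 0.05 and 3 an adjusted p under 0.05, where 11.1% of all 19220 genes were called, nearly all of them higher. Grb10 went from 736, 746 and 749 CPM to 594, 593 and 569.5 CPM (log2 fold change -0.34 ± 0.05, edgeR adjusted p = 1.506e-05). Kcnq1ot1 went from 700, 723 and 682 CPM to 580, 562 and 532 CPM (-0.33 ± 0.05, edgeR adjusted p = 5.184e-05). Peg3 went the other way, from 132, 117 and 118 CPM to 160, 132 and 149 CPM (0.27 ± 0.07, edgeR adjusted p = 0.00472). All TAF3 libraries of Grb10 and Kcnq1ot1 lay below their controls. For Peg3 the groups nearly touched, at 131.6 CPM in the highest control and 132.5 CPM in the lowest TAF3 library. Each difference was under the fold threshold, and the share of all genes whose libraries separate in this way was not counted. Dlk1 (0.17 ± 0.07), Meg3 (0.03 ± 0.08) and H19 (0.59 ± 0.46) were not called; H19 replicate 2 was low in both groups, with 13 and 14 counts against 32 to 57 in the others. Snrpn went from 0, 0 and 3 counts to 14, 11 and 4 (edgeR adjusted p = 0.0629), and was called without control replicate 3, the library with the 3 counts (edgeR adjusted p = 0.0216).

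Opposite Kcnq1ot1, the potassium channel gene Kcnq1 rose in NIH3T3 with the TAF3 reader, from 9.97 CPM ± 0.568 to 30.95 CPM ± 4.67 (SD, n = 3; log2 fold change 1.64 ± 0.13 SE, edgeR adjusted p = 5.463e-10). It was 1 of 3 called among 19 other imprinted genes tested, all 3 higher; the others, Ddc and Ppp1r9a, had under 100 counts per library and are named after their values were seen. In Neuro-2a edgeR called 1 of 23 and DESeq2 called 3. The edgeR call was Igf2r, the receptor that clears IGF2, which is also on the IGF axis list (2.76 CPM ± 1.02 to 9.61 CPM ± 1.91; log2 fold change 1.81 ± 0.30, edgeR adjusted p = 0.021; 1.94 without TAF3 replicate 1), and which was named after its values were seen in view of its low mean count. Without that replicate edgeR called 4 of 23, all higher: Igf2r, Kcnq1 (1.12), Rian (1.41) and Mirg (2.94), the last 3 also named after their values were seen.

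The difference of the TAF3 effect between Neuro-2a and NIH3T3 was tested as an interaction. Of the 8 members tested edgeR called 0, with 1 at an unadjusted p under 0.05, and DESeq2 called 1, where 3.05% of all 19509 genes were called. That member was Grb10 (difference of log2 fold changes 1.65 ± 0.45, edgeR adjusted p = 0.0551, DESeq2 adjusted p = 0.00189). edgeR called it without Neuro-2a TAF3 replicate 1 (1.78) and without Neuro-2a control replicate 2 (2.35). In Neuro-2a it rested on 0 to 18 counts per library. For Peg10 the interaction was 2.71 ± 1.45 (edgeR adjusted p = 0.543), with 1 count in all NIH3T3 libraries, so no effect of TAF3 on Peg10 could be measured in NIH3T3. Kcnq1ot1 had an interaction of -0.0012 ± 0.16.

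In HCT116 cells CDKN1C was the member that changed with the TAF3 reader. It stood at 4.06, 4.22 and 4.28 CPM in the controls and at 1.82, 2.11 and 1.95 CPM with TAF3, with no overlap. The log2 fold change was -1.09 ± 0.23 (SE, n = 3 per group, edgeR adjusted p = 0.000178), 2.13-fold lower. CDKN1C was 1 of the 6 members tested, where 6.62% of all 18731 genes were called. IGF2 went from 69.4, 68.4 and 61.3 CPM to 56.7, 51.6 and 61.9 CPM, with 1 TAF3 library inside the control range (-0.22 ± 0.07, edgeR adjusted p = 0.013). PEG10 went from 33.0, 38.7 and 32.8 CPM to 42.7, 39.1 and 39.9 CPM without overlap (0.22 ± 0.08, edgeR adjusted p = 0.028). Both differences were small against the threshold of 0.75. H19 (0.10 ± 0.18), KCNQ1OT1 (0.14 ± 0.11) and GRB10 (-0.15 ± 0.08) had adjusted p-values from 0.118 to 0.707. DLK1 had no count in the controls and 1, 3 and 4 counts with TAF3. MEG3 had at most 1 count per library. Among 24 other imprinted genes tested DDC, MEG9 and NNAT were higher, named after their values were seen, with mean counts of 5.83 to 27.2 per library.

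HEK293T cells expressing the CBX7 reader had higher H19 counts and lower IGF2 counts, neighbours of the same cluster, than the control cells. Only 12.6% of the IGF2 span is free of another same-strand gene, so its counts may miss much of its RNA. If the controls were untreated, the reader cannot be told apart from transfection and the rest of the construct. H19 stood at 14.8, 12.3 and 12.02 CPM in the controls and at 31.4, 26.5 and 25.2 CPM with CBX7, with no overlap. The log2 fold change was 1.10 ± 0.13 (SE, n = 3 per group, edgeR adjusted p = 1.764e-05), or 2.14-fold. IGF2 stood at 10.8, 9.93 and 10.6 CPM in the controls and at 5.94, 5.19 and 7.41 CPM with CBX7, again without overlap. Its log2 fold change was -0.75 ± 0.16 (edgeR adjusted p = 0.00279), 1.68-fold lower, at the edge of the fold threshold. DESeq2 gave -0.74 with an adjusted p of 0.00341 and did not call it. The call was also lost when CBX7 replicate 1 or 2 or control replicate 1 or 3 was left out (-0.74 to -0.62). These were 2 of the 6 members tested, where 7.66% of all 18204 genes were called. The members were chosen with the H19 result known, so it is given as a description. Marker genes moved in the same comparison. NEFM, a neurofilament gene that marks HEK293T here, fell from 369 CPM ± 40.7 to 179 CPM ± 3.99 (log2 fold change -1.03, edgeR adjusted p = 1.332e-06). It was the 1 of 4 HEK293T markers called, and their summed level was 676.5 to 758 CPM in the controls and 477 to 498 CPM with CBX7. Of the epithelial markers listed for HCT116 none of 4 tested was called, and their summed level was 295 to 316 CPM and 426 to 462 CPM. That sum was mostly the keratins, KRT8 at 203 and 299 CPM and KRT18 at 83.9 and 131 CPM. CDH1 (14.1 and 8.31 CPM, log2 fold change -0.746) and EPCAM (8.13 and 6.25 CPM, -0.371) went the other way. Of the fibroblast markers listed for NIH3T3 1 of 5 tested was lower, PDGFRB (-1.41), and their summed level was 1052 to 1100 CPM and 816 to 907 CPM, with FN1 at 164.5 and 108 CPM. The part of these shifts in the H19 and IGF2 values was not tested.

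KCNQ1OT1 went from 29.4, 25.5 and 36.9 CPM to 22.2, 21.2 and 20.4 CPM with CBX7, with no overlap. The log2 fold change of -0.52 ± 0.12 (edgeR adjusted p = 0.00503) was under the fold threshold. KCNQ1, on the opposite strand, was not called. It had 91 to 117 raw counts per control library and 45 to 62 with CBX7. The control libraries were deeper, with total counts of 12109803 to 15330874 against 8258859 to 10995383. GRB10 was at 79.5, 90.2 and 82.6 CPM and at 71.6, 69.6 and 71.9 CPM (-0.24 ± 0.08, edgeR adjusted p = 0.0382). CDKN1C (-0.44 ± 0.24) and PEG10 (0.42 ± 0.31) were not called. Of 15 other imprinted genes tested 1 was called, SLC22A18, a transporter gene close to CDKN1C, at 11.2 CPM ± 2.104 in the controls and 4.79 CPM ± 1.04 with CBX7 (log2 fold change -1.22 ± 0.19, edgeR adjusted p = 0.000244).

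**Figure D3:**
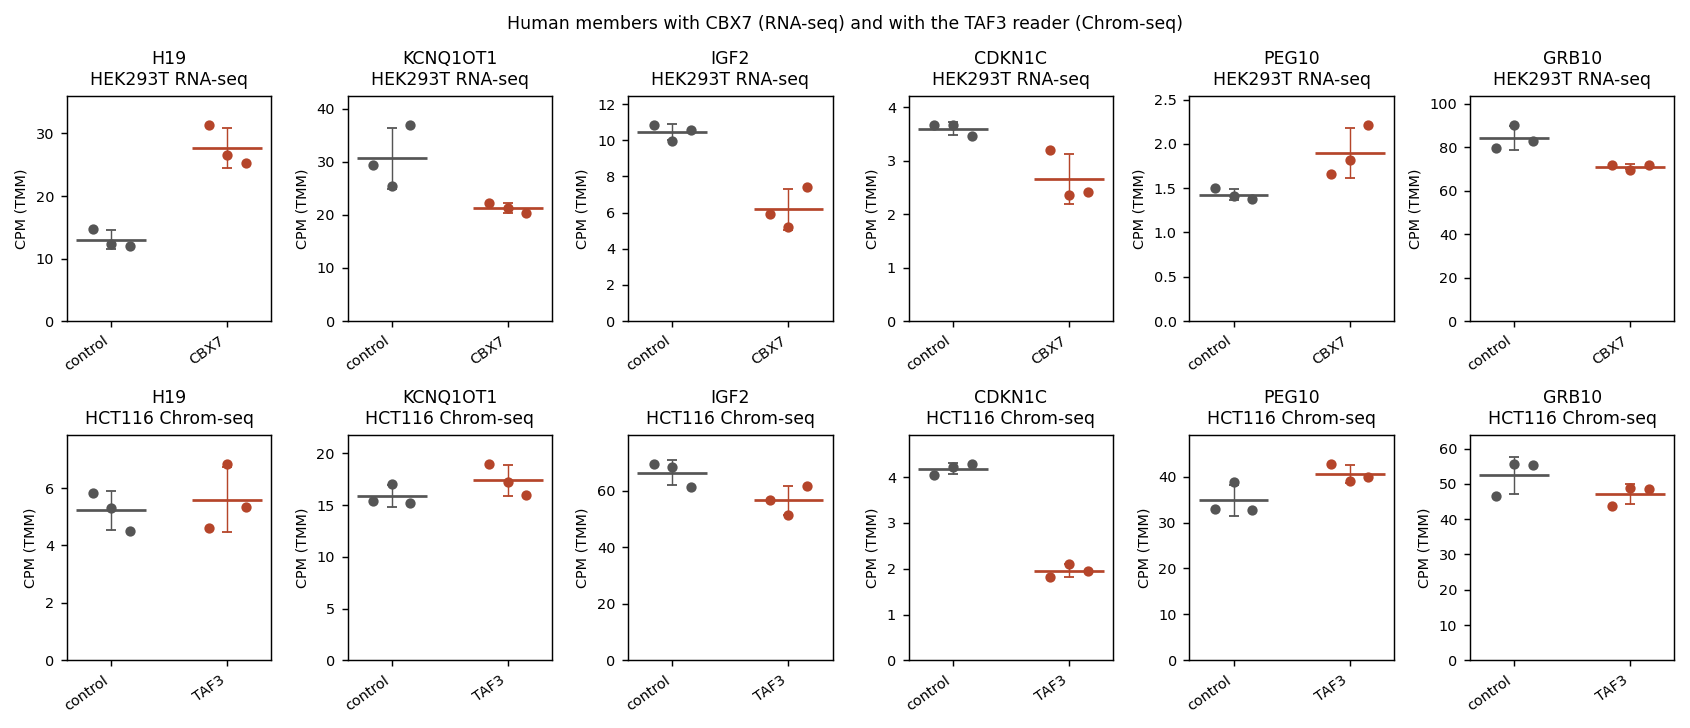
Points are libraries, horizontal lines the mean and whiskers the SD of 3 libraries, in CPM from 0; grey is control and red is CBX7 (upper row, HEK293T RNA-seq) or TAF3 (lower row, HCT116 Chrom-seq). With CBX7 the H19 libraries lie at 25.2 to 31.4 CPM against 12.02 to 14.8 CPM, and with TAF3 the CDKN1C libraries lie at 1.82 to 2.11 CPM against 4.06 to 4.28 CPM.

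After ASO treatment of HEK293T cells PEG10 and H19 were the members that differed past both thresholds from the NC ASO. PEG10 was lower with each of the ASOs, and H19 was lower past both thresholds with the LINC00662 ASO. These comparisons share the NC ASO libraries and are given side by side. PEG10 stood at 7.44, 8.29 and 8.59 CPM with the NC ASO. It stood at 1.68, 2.70 and 2.004 CPM with the SETD5-AS1 ASO, at 1.16 CPM in both libraries of the LINC00641 ASO, and at 2.67, 3.05 and 1.33 CPM with the LINC00662 ASO. The highest of these 8 libraries lay well below the lowest NC ASO library. The log2 fold changes were -1.98 ± 0.21 (edgeR adjusted p = 4.438e-07), -2.85 ± 0.25 (edgeR adjusted p = 1.47e-08) and -1.78 ± 0.23 (edgeR adjusted p = 1.994e-07). Some markers of other cell types differed in the NC ASO group as well. The 5 epithelial markers listed for HCT116 summed to 569 to 644 CPM with the NC ASO and to 257 to 417 CPM over the targeting ASO libraries, with KRT8 at 430 CPM ± 36.0 against means of 166 to 276 CPM. The 8 markers listed for Neuro-2a summed to 56.5 to 61.4 CPM and to 19.6 to 28.1 CPM. HAND2 made up most of this, at 48.9 CPM ± 1.89 against means of 14.2 to 18.0 CPM, and was the 1 called of 4 tested with each ASO. Of those 8 markers 2 had no counts in the NC ASO libraries. The 4 HEK293T markers summed to 527 to 560 CPM with the NC ASO, to 498.5 to 564 CPM with the SETD5-AS1 ASO, and to 690 to 815 CPM with the other ASOs. Their part in the member values was not tested.

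H19 stood at 12.6, 11.1 and 10.2 CPM with the NC ASO. With the LINC00662 ASO it was at 4.27, 5.54 and 3.85 CPM, a log2 fold change of -1.32 ± 0.17 (SE, edgeR adjusted p = 2.305e-07), 2.50-fold lower. With the LINC00641 ASO it was at 7.60 and 6.80 CPM (-0.72 ± 0.17, edgeR adjusted p = 0.0012) and with the SETD5-AS1 ASO at 8.82, 10.2 and 8.50 CPM (-0.37 ± 0.14, edgeR adjusted p = 0.0366). Neither of these passed the fold threshold; without LINC00641 ASO replicate 2 the LINC00641 value was -0.79 and without NC ASO replicate 3 it was -0.80, both called. The members called were 1 of 6 tested for SETD5-AS1, where 24.4% of all genes were called, 1 of 6 for LINC00641, where 22.5% were called, and 2 of 6 for LINC00662, where 24.9% were called.

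The difference between oligonucleotides was tested without the NC ASO, as LINC00662 against the mean of the SETD5-AS1 and LINC00641 groups over 8 libraries. H19 was lower with the LINC00662 ASO (log2 difference -0.83 ± 0.16, edgeR adjusted p = 0.000493), 1 of the 6 members tested, where 9.7% of all 18409 genes were called. Without LINC00662 ASO replicate 3, its lowest library, the difference was -0.72 and short of the fold threshold. PEG10 did not pass (0.59 ± 0.30, edgeR adjusted p = 0.146). Without LINC00662 ASO replicate 3 it did, at 0.86 (edgeR adjusted p = 0.0341). GRB10 differed by -0.04 ± 0.07.

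GRB10 stood at 47.7, 54.8 and 50.2 CPM with the NC ASO and between 73.1 and 86.5 CPM in all 8 libraries of the other ASOs, with no overlap. Its log2 fold changes of 0.64 ± 0.08, 0.57 ± 0.09 and 0.62 ± 0.08 for SETD5-AS1, LINC00641 and LINC00662 had edgeR adjusted p-values of 4.54e-06, 2.509e-05 and 2.638e-07 and were under the fold threshold. KCNQ1OT1, IGF2 and CDKN1C were not called with any ASO. Their log2 fold changes ran from -0.53 to -0.02, and their NC ASO means were 25.4 CPM ± 3.61, 5.56 CPM ± 0.314 and 2.35 CPM ± 0.305 (SD, n = 3).

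**Figure D4:**
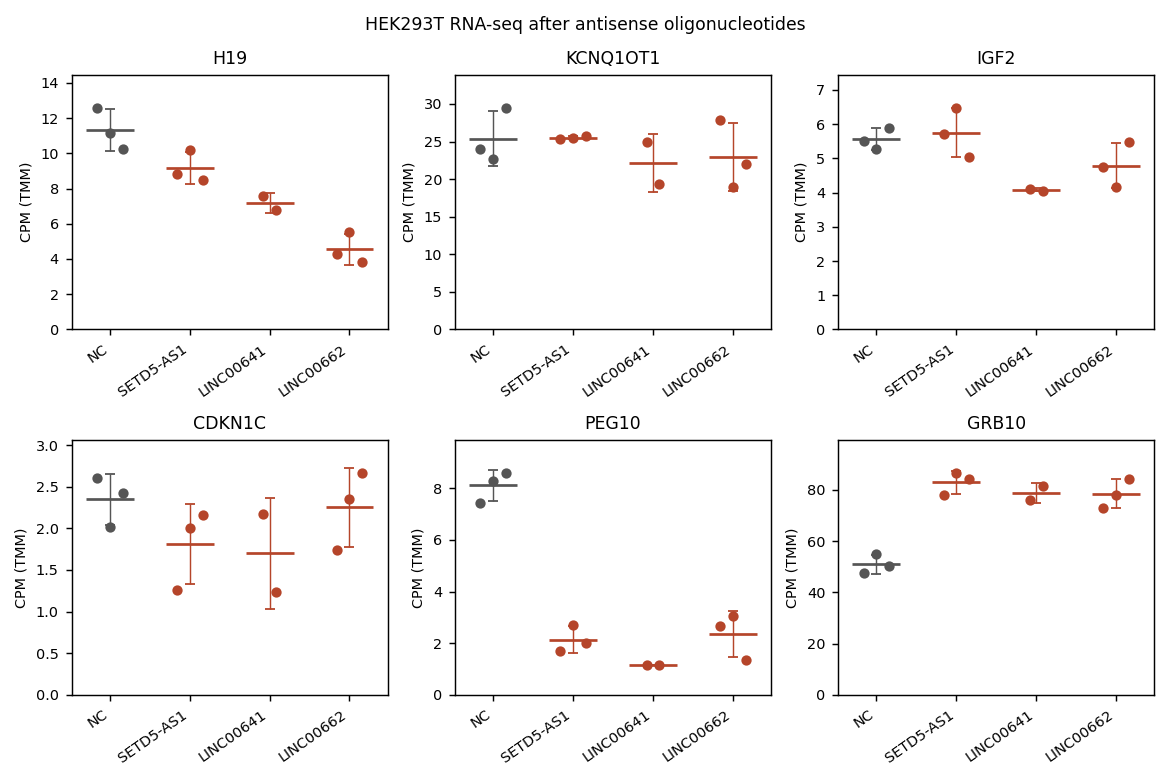
Points are HEK293T RNA-seq libraries, horizontal lines the mean and whiskers the SD (3 libraries, 2 for LINC00641), in CPM from 0, with the NC ASO in grey and the targeting ASOs in red. PEG10 lies at 7.44 to 8.59 CPM with the NC ASO and at 1.16 to 3.05 CPM with the others; GRB10 lies at 47.7 to 54.8 CPM and at 73.1 to 86.5 CPM.

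Levels in the control libraries of the CBX7 experiment, from another table and so not tested against these, were nearer the targeting ASOs for PEG10 and GRB10. PEG10 stood there at 1.43 CPM ± 0.0663 (SD, n = 3), against 8.11 CPM ± 0.595 with the NC ASO and means of 1.16 to 2.35 CPM with the targeting ASOs. GRB10 stood at 84.1 CPM ± 5.51, against 50.9 CPM ± 3.59 and means of 78.5 to 82.9 CPM. The same order held for PHLDA2 and DNMT3A, which are on the other lists. PHLDA2, an imprinted placental growth gene near CDKN1C, stood at 6.27 CPM ± 0.72 in those controls, at 40.0 CPM ± 2.65 with the NC ASO and at means of 6.21 to 6.42 CPM with the targeting ASOs. DNMT3A stood at 63.1 CPM ± 5.01, 15.8 CPM ± 0.647 and 51.1 to 56.2 CPM. H19, in contrast, stood at 13.01 CPM ± 1.52 in those controls, next to 11.3 CPM ± 1.18 with the NC ASO. IGF2 did not follow the order either. It stood at 9.93 to 10.8 CPM in those controls, at 5.28 to 5.90 CPM with the NC ASO and at 4.05 to 6.48 CPM with the targeting ASOs. Which of the groups is the one that moved cannot be told from the fold changes against the NC ASO alone, and its part in them was not tested.

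PHLDA2 was lower against the NC ASO by 2.75 ± 0.14, 2.74 ± 0.14 and 2.64 ± 0.11 on the log2 scale for SETD5-AS1, LINC00641 and LINC00662 (edgeR adjusted p = 6.203e-11, 8.204e-12 and 6.554e-16). Of the other imprinted genes edgeR called 1 rise and 1 fall among 15 tested for SETD5-AS1, 4 rises and 3 falls among 16 for LINC00641, and 3 falls with no rise among 17 for LINC00662. COPG2, a coatomer subunit gene, was higher with the LINC00641 ASO (0.80 ± 0.12) and lower with the LINC00662 ASO (-0.84 ± 0.13), and the test between oligonucleotides gave -1.63 ± 0.11 (edgeR adjusted p = 5.034e-10). PPP1R9A, a neuronal scaffold gene beside PEG10, was higher with the LINC00641 ASO (0.89 ± 0.16), and BLCAP lower (-0.96 ± 0.11). Of 11 imprint regulators tested 1 was higher and 1 lower with each ASO. DNMT3A was the higher one, by 1.62 ± 0.10, 1.77 ± 0.10 and 1.79 ± 0.09, and TRIM28, a co-repressor that works with ZFP57, the lower one, by values of -0.98, -0.97 and -0.89. TRIM28 is named after its values were seen. On the IGF axis the numbers higher and lower of 11 tested were 2 and 2, 3 and 1, and 2 and 1. IGFBP5, an IGF-binding protein, was higher with the SETD5-AS1 and LINC00641 ASOs (1.20 ± 0.10 and 1.31 ± 0.09), and INSR, the insulin receptor, with the LINC00662 ASO (1.12 ± 0.09).

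**Figure D5:**
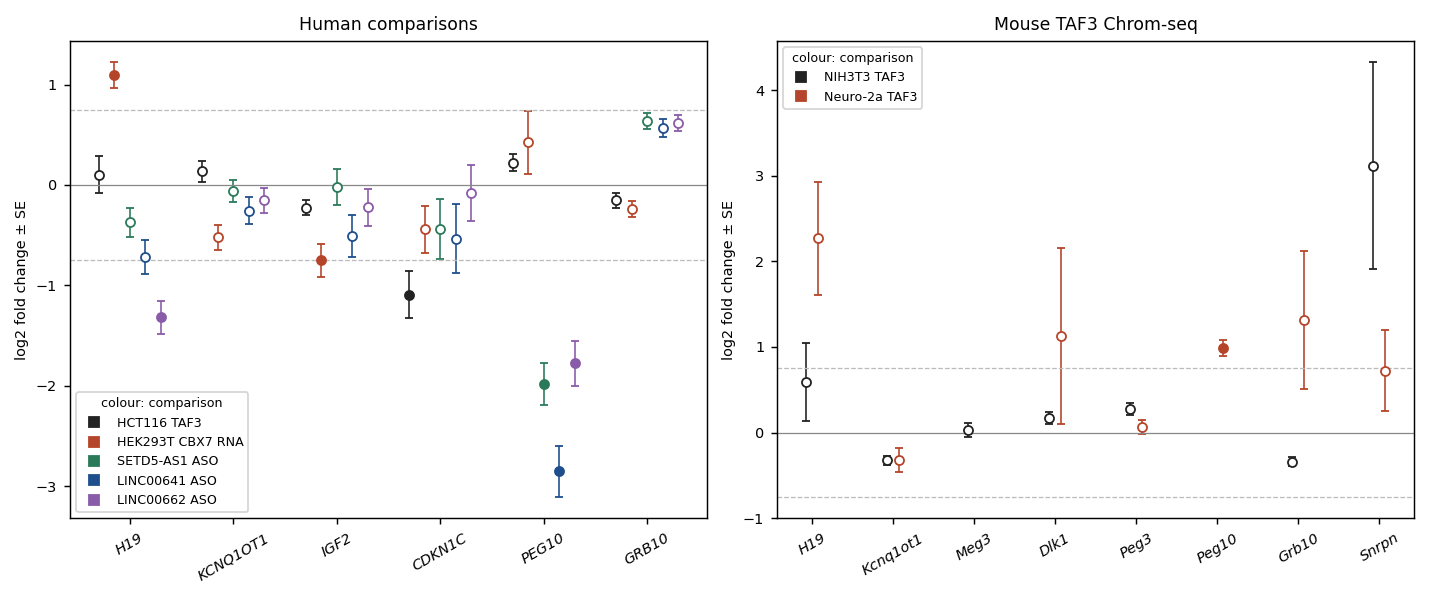
Points are log2 fold changes with their SE for each member tested, coloured by comparison, filled where called and open where not, with dashed lines at the fold threshold of 0.75 in each direction. In human cells the filled points are H19 at 1.10 with CBX7 and at -1.32 with the LINC00662 ASO, PEG10 with all 3 ASOs, IGF2 at -0.75 with CBX7 and CDKN1C at -1.09 in HCT116; with TAF3 in the mouse lines only Peg10 in Neuro-2a is filled.

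The medians of the members and lists lay beside those of all genes as follows. Over the 6 human members tested, the median log2 fold change was -0.03 in HCT116 with TAF3, -0.34 with CBX7, and -0.22, -0.52 and -0.19 with the SETD5-AS1, LINC00641 and LINC00662 ASOs, while the medians of all genes lay between -0.0122 and 0.028. Over the other imprinted genes the same medians were 0.01, -0.21, -0.08, 0.11 and -0.01. Of the imprint regulators edgeR and DESeq2 called 0 in HCT116, NIH3T3, Neuro-2a and the CBX7 experiment, with 7 of 11, 7 of 12, 2 of 12 and 5 of 11 at an unadjusted p under 0.05.

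Across the 11 ASO libraries the genes whose log2 CPM followed each member most closely were listed by Pearson's r among genes whose mean count reached 100. H19 was followed by GDF11 (r = 0.96), IGF2 by CYBA (r = 0.88) and C19orf55 (r = 0.87), and KCNQ1OT1 by EXO5 (r = 0.79) and NF2 (r = 0.78). The libraries share treatment groups, and these are the highest of 10906 or 10907 values each, given as a description. MEG3 was too low for such a list, with at most 2 counts per library.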

How the data were processed

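Per the labels and the study's methods, poly(A) RNA was made into Smart-seq libraries, trimmed with fastp 0.23.1, aligned with HISAT2 2.1.0 (hg19 for human, mm10 for mouse) and assigned to GENCODE genes by featureCounts 2.0.1, and changes were called with DESeq2 1.34.0 (names and versions from the submitters' processing notes). The deposited files hold raw counts per gene and library; no use of molecular identifiers is stated, so PCR copies may be counted and intervals cover counting error only. From 5 tables, 35 libraries were used (18 Chrom-seq, 17 RNA-seq), and 0 columns lacked a listed sample. The HEK293T Chrom-seq table, which stacks blocks with different headers, was not used, so 4 planned comparisons with its 12 libraries were not analysed here.

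Groups were compared with edgeR 4.0.16 (R 4.3.3): TMM scaling, genes with a summed count above 3 per library (18 over 6 libraries), quasi-likelihood tests and Benjamini-Hochberg adjustment over all genes tested. Calls required both an adjusted p below 0.05 and a log2 fold change of 0.75 or more either way, the study's thresholds. CPM values are TMM-scaled within a table. The SE of a log2 fold change is its size divided by the square root of the quasi-likelihood F statistic. At low counts it can lie below the counting error. No pair of replicates was identical.

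The members and gene lists were chosen with earlier results of these data known. Beside the members, the text names from the other imprinted genes up to 2 called rises and 2 called falls per comparison, and from the imprint regulators and the IGF axis the called gene with the largest change, each with a mean of at least 100 counts per library; exceptions are marked. Same-numbered libraries deviated together in all 3 pairs of the CBX7 experiment (correlations 0.131 to 0.331 over 12225 genes), and no other comparison had every pair over 0.1. Alternatives were DESeq2 1.42.0, its size factors, library size alone, other filters, a replicate block, a joint fit of the ASO groups and leaving out each library. Values of some genes that these rules would name are not reported here.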

Additional observations from a re-analysis of the deposited data

Results flagged for a closer look

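The response to the TAF3 reader was compared between the mouse lines as a difference of log2 fold changes, Neuro-2a minus NIH3T3. edgeR called no member, although DESeq2 called Grb10, as described above. Of 24 other imprinted genes tested edgeR called 6, 4 higher and 2 lower. The 5 genes given first are those that the naming rule took. Mirg differed by 3.35 ± 0.62 (SE, edgeR adjusted p = 0.00393), with 0 to 7 counts per library in Neuro-2a controls and 12 to 35 with TAF3. Plagl1 differed by 2.64 ± 0.68 (edgeR adjusted p = 0.038), with 0 to 6 and 7 to 13 counts per library in Neuro-2a. Igf2r, which is also on the IGF axis list, differed by 1.74 ± 0.23 (edgeR adjusted p = 0.000152), at 2.76 and 9.61 CPM in Neuro-2a and 319 and 332 CPM in NIH3T3. Ppp1r9a differed by -2.50 ± 0.43 (edgeR adjusted p = 0.00171), with 1 to 15 and 30 to 50 counts per library in NIH3T3. Sgce gave -5.47 ± 0.97 (edgeR adjusted p = 0.00374), but it had no count in the NIH3T3 controls and 3 to 7 per library with TAF3, too few to be tested in NIH3T3 alone, so its value and p rest on the prior count and are not read as a difference. The remaining call was Rian (1.21 ± 0.27, edgeR adjusted p = 0.0155), named after its values were seen. The targeted gene Taf3 was called too (-2.80 ± 0.13). Without Neuro-2a TAF3 replicate 1 the values were 2.99 for Mirg, 2.55 for Plagl1, 1.88 for Igf2r, -2.39 for Ppp1r9a, -5.395 for Sgce and 1.29 for Rian, all called.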

How the results depend on the processing

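Of 131 recomputed counts of members called, 114 stayed within 1.5 times the value reported and 17 did not. For CBX7 RNA-seq the count was 1 in place of 2 with DESeq2, DESeq2 size factors, library size alone and filterByExpr, in each case through IGF2, and 1 to 2 when each library was left out. For the SETD5-AS1 ASO it was 2 with library size alone, through GRB10 (0.78). For the mouse interaction it was 1 in place of 0 with DESeq2 and with no filter, through Grb10, and 0 to 1 when each library was left out. Leaving out each library gave 0 to 1 for NIH3T3 TAF3, 1 to 2 for Neuro-2a TAF3 and 1 to 2 for the LINC00641 ASO. Of 131 recomputed counts of other imprinted genes called, 118 stayed within 1.5 times and 13 did not, among them Neuro-2a TAF3, with 3 in place of 1 by DESeq2. No member called turned its direction under any alternative run. The replicate block gave the same counts, 2 for CBX7 RNA-seq (H19 1.09, IGF2 -0.75), 1 for HCT116, and 0 for NIH3T3, and it changed no other count of members called. Leaving out a LINC00641 ASO library left 1 library in that group, which was assumed to vary like the NC ASO group. The planned HEK293T Chrom-seq comparisons were not run. Counts were too few to compare for human DLK1 and MEG3, with at most 4 per library, and mouse Cdkn1c, with at most 13. The causes of these shifts were not tested.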
